A study of Mus musculus with 6 samples.

Results

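The genes described here are the inhibitors of cyclin-dependent kinases (CDKs) together with the p53 gene Trp53 and its targets Mdm2 and Ccng1. They were taken by symbol from the deposited count table, and all 10 were found among its 24421 genes. RNA came from sorted, lineage-labelled alveolar type II (AT2) cells, the surfactant-producing epithelial cells of the lung, of 6 mice. The 3 control mice were Sftpc-CreERT2/+; R26-tdTomato/+. The 3 caBmpr1a mice were Sftpc-CreERT2/+ with R26-tdTomato on one chromosome and R26-caBmpr1a, a constitutively active form of the BMP receptor BMPR1A, on the other. All 6 mice thus carried the tamoxifen-inducible Cre and the tdTomato reporter, and recombination was induced with tamoxifen. Control replicates 1 and 3 and caBmpr1a replicates 2 and 3 were 12 weeks old, and control replicate 2 and caBmpr1a replicate 1 were 16 weeks old. Cre was driven by the Sftpc promoter, and by the study's account a cell could recombine the reporter without the receptor allele, so a sorted caBmpr1a population may hold cells without the active receptor.

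CDK inhibitors hold back the kinases that drive the cell cycle. The Cip/Kip proteins p21 (Cdkn1a), p27 (Cdkn1b) and p57 (Cdkn1c) bind several cyclin-CDK complexes, while the INK4 proteins p16 (Cdkn2a), p15 (Cdkn2b), p18 (Cdkn2c) and p19 (Cdkn2d) bind CDK4 and CDK6, the partners of the D cyclins. The transcription factor p53 is activated by DNA damage and other stress, induces Cdkn1a, and is kept low by the ubiquitin ligase MDM2, itself encoded by a p53 target. Adult AT2 cells are mostly quiescent and re-enter the cell cycle after injury, and BMP signalling is known to restrain proliferation in many epithelia.

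Total counts were 22909120, 24490233 and 27915100 in control replicates 1 to 3 and 21554249, 24716504 and 28440227 in caBmpr1a replicates 1 to 3. Levels are given as CPM, counts scaled to a common library size by TMM, and 3 counts corresponded to between 0.0976 and 0.138 CPM, a floor that covers counting error only. The libraries were not alike within groups. Control replicate 1 and caBmpr1a replicate 3 held reads of the Y-linked genes Kdm5d, Uty, Eif2s3y and Ddx3y, 176 and 146 CPM in sum, and the other 4 libraries held 0. The first principal component, with 49.3% of the variance, placed these 2 libraries at -36.8 and -73.5, against values from 0.503 to 55.7 in the other 4. Values in the 4 libraries without Y-linked reads are therefore given beside the tested members and beside some of the other named genes. The remaining pair has 1 library per group, so its log2 ratios are without a test.

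BMP targets were described as a check of the receptor allele, and of 5 such genes 3 were called higher by edgeR and 5 by DESeq2 (median log2 fold change 1.33). Id1, an inhibitor of DNA-binding protein, had 18.5, 20.8 and 19.2 CPM in control replicates 1 to 3 and 124, 177 and 411 CPM in caBmpr1a replicates 1 to 3. The groups did not overlap, and caBmpr1a replicate 3 was far above the other 2. Id1, Id3 and the inhibitory SMAD gene Smad6 rose, with log2 fold changes of 3.61, 4.58 and 1.27 (Benjamini-Hochberg adjusted p = 0.0172, 0.00758 and 0.0431, edgeR quasi-likelihood test). In the 4 libraries without Y-linked reads all 3 were called as well, at 2.95, 4.03 and 1.19 (edgeR adjusted p = 0.00280, 0.00211 and 0.0462). All 3 calls were lost without control replicate 1, 2 or 3, with log2 fold changes from 3.56 to 3.65 for Id1, 4.46 to 4.69 for Id3 and 1.14 to 1.39 for Smad6 (edgeR adjusted p = 0.0955, 0.130 and 0.1097 for Id1, 0.0536, 0.0602 and 0.0595 for Id3, and 0.124, 0.152 and 0.216 for Smad6). The call of Id1 was also lost without caBmpr1a replicate 2 (edgeR adjusted p = 0.0544). That of Smad6 was lost in edgeR without caBmpr1a replicate 2 or 3 (0.214 and 0.0983). It was also lost in edgeR with relative log expression (RLE) scaling in place of TMM (0.0545) or with age as a covariate (0.0988).

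Across the 16723 genes that passed the expression filter, 38 were called higher (0.227%) and 2 lower (0.012%) in caBmpr1a, when calls needed more than a 2-fold difference and, in edgeR's test, an adjusted p under 0.05. Genes called higher were 12, 6 and 7 without control replicates 1 to 3 and 59, 8 and 25 without caBmpr1a replicates 1 to 3, and genes called lower from 0 to 4. Of the 10 CDK inhibitor and p53 genes, 9 passed the filter and 0 were called in either direction by edgeR. DESeq2, with an adjusted p for 9 members too, called 0 of them, beside 0.87% of all its tested genes higher (119) and 0.183% lower (25), and edgeR with a covariate for Y-linked reads called 0, beside 0.646% higher (108) and 0.203% lower (34). At an unadjusted p under 0.05, 1 of the 9, Cdkn1c, was higher and 0 were lower, while 4.62% of all tested genes were higher and 5.05% lower by that rule. Cdkn1c was also the 1 tested member whose groups did not overlap, which 7% of all tested genes did in the upward and 10.1% in the downward direction. Of the 9 tested members, 3 had a log2 fold change above 0 and 6 below, with a median of -0.06, beside a median of -0.01 over all tested genes. Over all tested genes, 8160 were above 0 and 8563 below. A member that did not pass the threshold is not thereby shown to be equal in the groups.

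**Figure D1:**
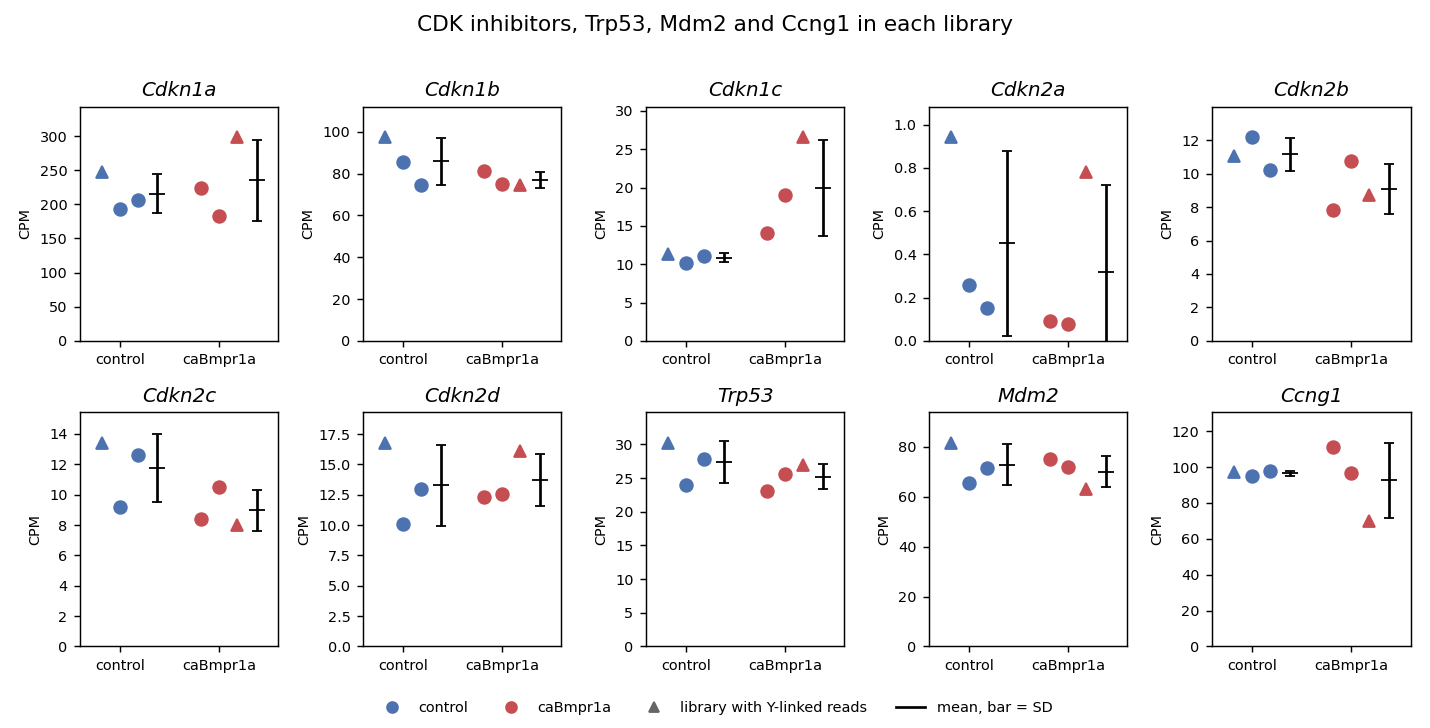
Level (CPM, vertical axes starting at 0) of each of the 10 genes in every library, control in blue and caBmpr1a in red, where triangles are the 2 libraries with Y-linked reads and black bars give the mean and SD of the 3 libraries (the lower bar of Cdkn2a in caBmpr1a runs below 0 and is not drawn there). Cdkn1c has its 3 caBmpr1a values, from 14.1 to 26.6 CPM, above its 3 control values, from 10.2 to 11.4 CPM, and Cdkn2a is highest in the triangles of both groups.

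Levels of different genes were compared per kilobase of the gene length in the table and ordered by the mean of all 6 libraries. Cdkn1a stood first, with 106 ± 14.2 CPM per kb in control and 116 ± 29.0 in caBmpr1a (mean ± SD, n = 3 libraries each). Cdkn1b followed with 35.7 ± 4.73 and 32.0 ± 1.65 CPM per kb, Ccng1 with 27.7 ± 0.412 and 26.6 ± 5.96, and Mdm2 with 23.5 ± 2.62 and 22.6 ± 2.02. Trp53 (14.6 ± 1.68 and 13.5 ± 1.01 CPM per kb) and Cdkn2d (10.4 ± 2.64 and 10.8 ± 1.68) lay in the middle. Further down were Cdkn1c, at 5.59 ± 0.327 CPM per kb in control and 10.2 ± 3.23 in caBmpr1a, Cdkn2b at 8.005 ± 0.708 and 6.53 ± 1.07, and Cdkn2c at 5.21 ± 1.00 and 3.98 ± 0.599. Cdkn2a came last, at 0.396 ± 0.377 and 0.279 ± 0.354 CPM per kb. By the range over the 6 libraries, Cdkn1a was separate from Cdkn1b, Mdm2 from Trp53 and Cdkn2c from Cdkn2a, whereas all other neighbours in this order overlapped. Within single libraries, 7, 7 and 8 of the 10 genes held their place in this order in control replicates 1 to 3 and 10, 10 and 6 in caBmpr1a replicates 1 to 3.

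The share of each inhibitor in the summed level of all 7, per kilobase, was taken within each library, a measure chosen after the values were seen. Cdkn1a made up 62.2%, 60.7% and 62.9% of the sum in control replicates 1 to 3 and 64.8%, 58.7% and 68.5% in caBmpr1a replicates 1 to 3. The groups overlapped. The share of Cdkn1c was 2.98%, 3.33% and 3.52% in control and 4.25%, 6.39% and 6.36% in caBmpr1a, without overlap, a difference of 2.39 percentage points given without a test. In each of the 6 libraries p21 transcripts were the most abundant of the inhibitor transcripts per length, with p27 next.

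Cdkn1a, which encodes p21, spans bases 29090986 to 29100722 of chromosome 17 (mm10, plus strand), with 4 exons of 2026 bases in the count table, of which 477 are coding in GENCODE M21. RefSeq promoter windows, 250 bases before to 50 after a start site on GRCm38.p6, were at hand for 9 of the 10 genes, 12 windows in all, and none for Cdkn1c. Cdkn1a has 2 of them. Each window was searched on both strands for GGCGCC, a GC-rich element bound by BMP-activated SMADs, GGGCGG, the GC box bound by Sp factors, TATAAA, the E-box CACGTG, and the p53 half-site. These occur in 11.9%, 35.7%, 13.6%, 7.15% and 8.36% of all 32851 windows of that length. The Cdkn1a windows are shown because they belong to the main p53 target among the inhibitors, with matches in capitals, p53 half-sites in the upstream window (chr17:29090729-29091028, plus strand) and GC boxes in the downstream one (chr17:29093519-29093818, plus strand).
Cdkn1a upstream start: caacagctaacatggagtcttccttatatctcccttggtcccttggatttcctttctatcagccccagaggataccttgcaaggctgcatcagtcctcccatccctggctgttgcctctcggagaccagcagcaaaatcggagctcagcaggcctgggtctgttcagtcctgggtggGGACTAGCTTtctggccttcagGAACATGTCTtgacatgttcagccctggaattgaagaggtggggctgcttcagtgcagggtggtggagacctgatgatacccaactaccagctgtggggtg
Cdkn1a downstream start: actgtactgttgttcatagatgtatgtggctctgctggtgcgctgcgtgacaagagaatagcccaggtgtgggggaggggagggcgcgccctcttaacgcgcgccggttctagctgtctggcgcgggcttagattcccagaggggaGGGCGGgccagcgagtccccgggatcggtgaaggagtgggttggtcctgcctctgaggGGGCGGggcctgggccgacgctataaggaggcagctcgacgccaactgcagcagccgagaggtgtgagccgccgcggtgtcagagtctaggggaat

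The upstream window held 2 p53 half-sites, at positions 178 and 200 of the window, and the downstream one held 2 GC boxes and no half-site. A match describes these letters only, and the counts do not separate transcripts from the 2 starts. In the data, Cdkn1a had 248, 193 and 206 CPM in control replicates 1 to 3 and 224, 182 and 298 CPM in caBmpr1a replicates 1 to 3. The highest value of each group was that of the library with Y-linked reads, and the groups overlapped, the lowest value of all being in caBmpr1a. The log2 fold change was 0.12, with a standard error (SE) of 0.19 and an edgeR adjusted p = 0.864. In the 4 libraries without Y-linked reads it was 0.06 (adjusted p = 0.864), the log2 ratio of the remaining pair was 0.27, and without caBmpr1a replicate 3 the sign turned, at -0.04. A putative antisense gene of GENCODE M21, AC167363.2, shares 90 exon bases (4.44%) with Cdkn1a and is not in the count table. Counting was unstranded, so its reads and those of Cdkn1a cannot be told apart.

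The 3 genes with the pattern closest to Cdkn1a over the 6 libraries were D5Ertd615e (Pearson r = 0.999), Pdgfc (0.995) and Syndig1l (0.994), by log2 CPM and as a description only. All 3 were rare, and Pdgfc, a platelet-derived growth factor, had from 0.698 to 3.06 CPM. Like Cdkn1a, each was highest in caBmpr1a replicate 3, followed by control replicate 1, which follows from picking them for their correlation with Cdkn1a.

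Cdkn1b, which encodes p27, lies on chromosome 6 from 134920401 to 134925525. It had 97.4, 85.5 and 74.6 CPM in control and 81.5, 74.8 and 74.4 CPM in caBmpr1a replicates 1 to 3. The groups overlapped, with control replicate 1 highest, and control replicate 3 was as low as 2 of the caBmpr1a libraries. The log2 fold change of -0.16 (SE 0.13, edgeR adjusted p = 0.712) did not pass the threshold, and in the 4 libraries without Y-linked reads it was -0.0016. Its promoter window held 2 matches to GGCGCC and 1 GC box.

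Cdkn1c, the imprinted gene of p57, lies on chromosome 7 from 143458339 to 143461050 on the minus strand. It had 11.4, 10.2 and 11.04 CPM in control replicates 1 to 3 and 14.1, 19.0 and 26.6 CPM in caBmpr1a replicates 1 to 3. The control libraries lay close together, each caBmpr1a library was above them, and caBmpr1a replicate 3 was the highest. The log2 fold change was 0.88 (SE 0.22, a 1.83-fold difference), the largest in size among the tested members, but with an adjusted p = 0.266 in edgeR's test it was not called. In the 4 libraries without Y-linked reads the log2 fold change was 0.68 (adjusted p = 0.174), and the log2 ratio of the remaining pair was 1.22. Over all alternatives it ranged from 0.65 to 1.09, with adjusted p from 0.0315 to 0.713. The adjusted p was under 0.05 with DESeq2 (0.0315) and with a covariate for Y-linked reads (0.0434), in both at a fold change under 2.

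The level of Cdkn1c has to be read beside 2 other measurements. A gene of GENCODE M21 on the opposite strand, Gm44732, covers 589 bases (30.3%) of the Cdkn1c exons and is not in the table, so without strand its reads and those of Cdkn1c cannot be told apart. Markers of other lung cells were measured in the same libraries, and in sorted bulk RNA a different number of cells of a type and a different amount of RNA per cell cannot be told apart. Of 10 endothelial markers, 9 had a log2 fold change above 0 (median 0.62), 7 were higher at an unadjusted p under 0.05, and 0 were called by edgeR or DESeq2. By that unadjusted p, 4.62% of all tested genes were higher. The summed level of the endothelial markers was 436, 665 and 477 CPM in control and 598, 879 and 676 CPM in caBmpr1a replicates 1 to 3. Esam was the most abundant. Without Esam, left out after its values were seen, the sum was 251, 492 and 326 CPM in control. In caBmpr1a it was then 448, 716 and 502.5 CPM, and the groups still overlapped. All 10 fibroblast and smooth muscle markers were above 0 (median 0.40), 3 were higher at an unadjusted p under 0.05, and 0 were called by edgeR or DESeq2. Their sums were 188, 237 and 214 CPM in control and 278, 336 and 304 CPM in caBmpr1a, with Col3a1 the most abundant. For Col3a1 and Col1a1 DESeq2 gave an adjusted p under 0.05 (0.00640 and 0.00521), as did edgeR with the covariate for Y-linked reads (0.0259 and 0.0166) and, for Col1a1, with library size as the only scaling (0.0439), each at a fold change under 2. Over all alternatives their adjusted p reached 0.626 and 0.605. The fibroblast sums of the groups did not overlap, like the values of Cdkn1c, and the endothelial sums overlapped. Endothelial and fibroblast sums were highest in caBmpr1a replicate 2, Cdkn1c in caBmpr1a replicate 3. None of these markers was at 0, and the part of other cells in the level of Cdkn1c was not tested.

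The endothelial genes with the highest log2 fold changes were Emcn (0.89) and Cldn5 (0.74) and those with the lowest Esam (-0.07) and Egfl7 (0.43), and among the fibroblast genes Col3a1 (0.77) and Col1a1 (0.70) were highest and Mgp (0.09) and Lum (0.14) lowest. Of 11 leukocyte markers 9 were above 0 (median 0.57), from Lyz1 (-1.33) and Cd68 (-0.12) to Itgax (1.30) and S100a8 (1.47). Itgax and S100a8 were highest in caBmpr1a replicate 1 and stood at 0.61 and 0.33 without it. At an unadjusted p under 0.05, 1 was higher and 1 lower, and 0 were called by edgeR or DESeq2. Their sum was 2155, 1986 and 2699 CPM in control and 1381, 1231 and 311 CPM in caBmpr1a, but most of it in each library was Lyz1, a lysozyme that AT2 cells also express, at -0.90 in the 4 libraries without Y-linked reads. Without Lyz1, left out after its values were seen, the sum was 63.3, 66.1 and 72.8 CPM in control and 138, 91.6 and 56.3 CPM in caBmpr1a, highest in caBmpr1a replicate 1 and lowest in replicate 3, the library with the most Cdkn1c. AT2 markers were abundant in all 6 libraries, with Sftpc from 42700.0 to 60123 CPM, and 9 of 10 had a log2 fold change below 0 (median -0.43). Their sum was 163620, 150360 and 148910 CPM in control and 130940, 117640 and 106780 CPM in caBmpr1a replicates 1 to 3, without overlap. In caBmpr1a replicate 3, where Cdkn1c and Cdkn1a were highest, 8 of the 10 were at their lowest, and their part in those levels was not tested. At an unadjusted p under 0.05, 5 were lower, beside 5.05% of all tested genes. Of the AT2 markers 0 were called by edgeR and 1, Lyz2, by DESeq2. With a covariate for Y-linked reads edgeR called 2 of them lower, Lyz2 (-1.15, adjusted p = 0.0462) and Cxcl15 (-1.10, adjusted p = 0.0395). In the 4 libraries without Y-linked reads these genes stood at -0.76 and -0.73 (edgeR adjusted p = 0.0886 and 0.0742) and were not called, and the log2 ratios of the pair were -1.89 and -1.80. The AT2 markers reached from Lyz2 (-1.09) and Cxcl15 (-1.01) to Sftpc (-0.15) and Sftpb (0.01).

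**Figure D2:**
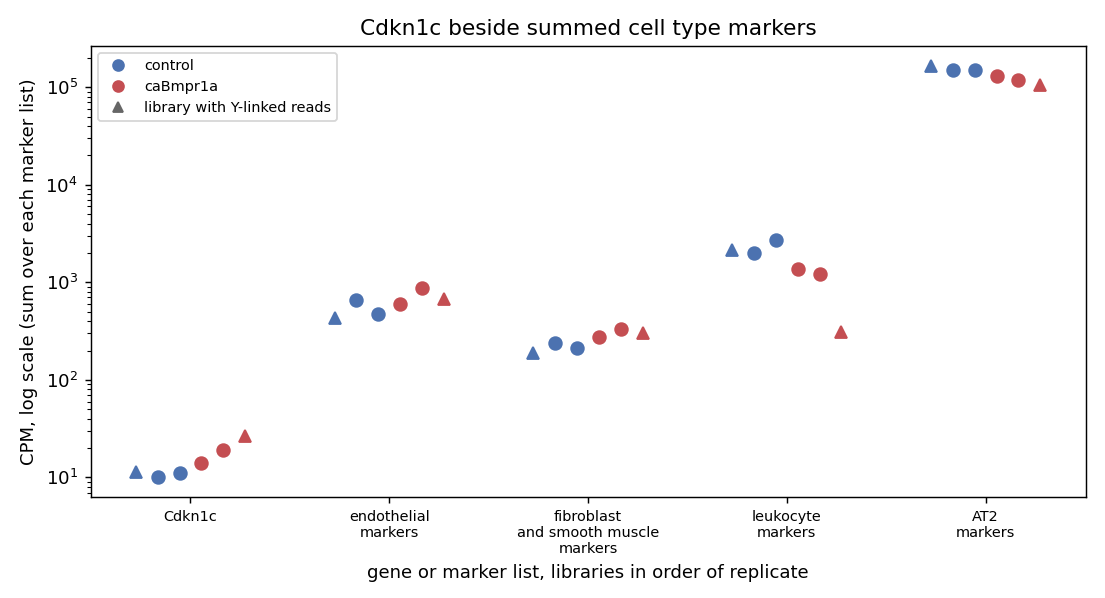
Level of Cdkn1c and summed level of 4 marker lists in each library (CPM, log axis), libraries from left to right in the order control replicates 1 to 3 and caBmpr1a replicates 1 to 3, with triangles for the libraries with Y-linked reads. Cdkn1c is highest in caBmpr1a replicate 3 (26.6 CPM), and the endothelial and fibroblast sums in caBmpr1a replicate 2 (879 and 336 CPM). The groups do not overlap for Cdkn1c and the fibroblast sum, and overlap for the endothelial sum.

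Cdkn2a encodes p16 from one start site and, from another, the ARF protein that blocks MDM2. The gene lies on chromosome 4 from 89274473 to 89294619 on the minus strand, and the count table adds both transcripts. The promoter windows of both starts are shown to mark what the single count joins, ARF (chr4:89294570-89294869, minus strand) and p16 (chr4:89282143-89282442, minus strand). Capitals mark GGGCGG and, once in the ARF window, GGCGCC, and neither window held a p53 half-site.
Cdkn2a ARF start: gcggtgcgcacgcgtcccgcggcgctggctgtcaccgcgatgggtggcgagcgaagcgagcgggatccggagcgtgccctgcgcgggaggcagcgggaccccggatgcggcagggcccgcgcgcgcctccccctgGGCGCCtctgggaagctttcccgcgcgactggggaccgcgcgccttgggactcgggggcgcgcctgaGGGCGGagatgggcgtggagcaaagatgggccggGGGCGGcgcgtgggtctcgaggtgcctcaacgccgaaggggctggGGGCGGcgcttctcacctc
Cdkn2a p16 start: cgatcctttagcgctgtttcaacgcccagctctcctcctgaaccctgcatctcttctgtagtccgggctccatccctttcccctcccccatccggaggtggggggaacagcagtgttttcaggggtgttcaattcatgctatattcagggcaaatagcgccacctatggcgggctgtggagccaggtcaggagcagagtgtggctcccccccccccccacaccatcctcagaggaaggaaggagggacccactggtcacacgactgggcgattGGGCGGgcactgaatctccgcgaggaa

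Cdkn2a had 21, 6 and 4 counts in control replicates 1 to 3 and 2, 2 and 24 counts in caBmpr1a replicates 1 to 3, or 0.942, 0.257 and 0.152 CPM and 0.0917, 0.0776 and 0.781 CPM. The high value of each group belonged to the library with Y-linked reads, and caBmpr1a replicates 1 and 2 were below the floor of 3 counts. It did not pass the expression filter and was not tested, and no fold is given. The groups overlapped.

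Cdkn2b, the neighbour of Cdkn2a on chromosome 4 (89306289 to 89311032), encodes p15, known as a target of TGF-beta signalling in epithelial cells. It had 11.1, 12.2 and 10.2 CPM in control and 7.84, 10.7 and 8.72 CPM in caBmpr1a replicates 1 to 3. Both caBmpr1a replicate 1 and replicate 3 were below every control library, and replicate 2 lay among the controls. The log2 fold change was -0.29 (SE 0.18, edgeR adjusted p = 0.635), and -0.23 in the 4 libraries without Y-linked reads. It was -0.17 without caBmpr1a replicate 1 and -0.42 without caBmpr1a replicate 2.

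Cdkn2c (p18) on chromosome 4 from 109660876 to 109666756 had 13.4, 9.17 and 12.6 CPM in control and 8.39, 10.5 and 8.01 CPM in caBmpr1a. Control replicate 2 lay among the caBmpr1a libraries. With a log2 fold change of -0.39 (SE 0.20, edgeR adjusted p = 0.584) it was the lowest of the members, and in the 4 libraries without Y-linked reads the value was -0.17. Cdkn2d (p19) on chromosome 9 from 21288464 to 21291209 had 16.8, 10.1 and 12.9 CPM in control and 12.3, 12.6 and 16.1 CPM in caBmpr1a, with the 2 libraries with Y-linked reads highest. Its log2 fold change was 0.05 (SE 0.21, edgeR adjusted p = 0.954), with 0.15 in the 4 libraries without Y-linked reads and a log2 ratio of -0.05 in the pair, and turned to -0.12 without control replicate 2 and to -0.05 without caBmpr1a replicate 3.

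Trp53 lies on chromosome 11 from 69580359 to 69591873, and Mdm2 and Ccng1, which encodes cyclin G1, on chromosomes 10 (117688875 to 117710758) and 11 (40748552 to 40755286). The windows of both p53 targets are shown with the p53 half-site and, in Mdm2, the GC boxes in capitals (chr10:117710709-117711008 and chr11:40755237-40755536, both on the minus strand). Of the 12 windows of the members, 5 held a p53 half-site, those of Mdm2, Ccng1, Trp53 and Cdkn2d and the upstream one of Cdkn1a. Of all 32851 windows 8.36% held a half-site, and the difference was not tested. Sites outside the windows were not searched, and a match describes the letters only.
Mdm2: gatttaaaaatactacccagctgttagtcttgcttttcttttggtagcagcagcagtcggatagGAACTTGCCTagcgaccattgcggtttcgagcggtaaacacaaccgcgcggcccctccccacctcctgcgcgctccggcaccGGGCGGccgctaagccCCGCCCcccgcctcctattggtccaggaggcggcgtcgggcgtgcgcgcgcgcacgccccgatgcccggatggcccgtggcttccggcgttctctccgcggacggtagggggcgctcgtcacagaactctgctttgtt
Ccng1: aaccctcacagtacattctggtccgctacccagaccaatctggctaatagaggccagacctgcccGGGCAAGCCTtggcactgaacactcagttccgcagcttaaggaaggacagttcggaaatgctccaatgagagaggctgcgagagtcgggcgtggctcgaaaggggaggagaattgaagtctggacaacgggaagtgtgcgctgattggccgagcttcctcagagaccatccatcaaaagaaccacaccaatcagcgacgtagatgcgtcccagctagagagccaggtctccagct

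Trp53 had 30.2, 24.0 and 27.8 CPM in control and 23.2, 25.6 and 26.9 CPM in caBmpr1a replicates 1 to 3, a log2 fold change of -0.12 (SE 0.13, edgeR adjusted p = 0.806), and -0.05 in the 4 libraries without Y-linked reads. Control replicates 1 and 3 were above every caBmpr1a library, control replicate 2 lay among them, and the groups overlapped. Mdm2 had 81.5, 65.4 and 71.5 CPM in control and 75.1, 71.96 and 63.0 CPM in caBmpr1a, with a log2 fold change of -0.06 (SE 0.13, edgeR adjusted p = 0.907). Control replicate 1 was highest and caBmpr1a replicate 3 lowest, so the pair with Y-linked reads had a log2 ratio of -0.37 and the other 4 libraries a log2 fold change of 0.14. Ccng1 had 97.1, 94.9 and 97.5 CPM in control and 111, 96.6 and 70.1 CPM in caBmpr1a. The controls were nearly equal, caBmpr1a replicate 1 was above and replicate 3 below them. Its log2 fold change was -0.06 (SE 0.17, edgeR adjusted p = 0.924), with -0.47 in the pair and 0.14 in the other 4 libraries. With library size as the only scaling, which moves the median of all genes to 0.12, the values of Trp53, Mdm2 and Ccng1 were 0.01, 0.07 and 0.06. In caBmpr1a replicate 3 Cdkn1a was at its highest over the 6 libraries while Mdm2 and Ccng1 were at their lowest.

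A list of 31 further p53 targets was tested in full. Of these, 0 were called by edgeR or DESeq2. At an unadjusted p under 0.05, 2 were higher and 2 lower, beside 4.62% and 5.05% of all tested genes. Of the 31 targets, 15 had a log2 fold change above 0 and 16 below. Their median was -0.00054, beside -0.01 for all tested genes. The summed level was 1545, 1389 and 1421 CPM in control and 1372, 1308 and 1671 CPM in caBmpr1a replicates 1 to 3, with Btg2 the most abundant. The highest and the lowest sum were both in caBmpr1a.

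Among them the lowest log2 fold changes were those of Plk2 and Sesn1, a polo-like kinase and a stress-inducible inhibitor of mTORC1 signalling. Sesn1 had 31.9, 30.3 and 26.5 CPM in control and 21.4, 22.4 and 21.2 CPM in caBmpr1a, without overlap, and a log2 fold change of -0.45 (edgeR adjusted p = 0.287). Plk2 had 87.5, 85.6 and 93.1 CPM in control and 60.1, 55.4 and 79.1 CPM in caBmpr1a, also without overlap, at a log2 fold change of -0.45 (edgeR adjusted p = 0.390). In the 4 libraries without Y-linked reads it was -0.60 with an adjusted p = 0.0365, at a fold under 2 (range of its adjusted p over all alternatives, 0.0365 to 0.803). The highest were Pmaip1, which encodes the BH3-only protein NOXA, at 0.97 (edgeR adjusted p = 0.542), and Plk3 at 0.76 (adjusted p = 0.679). Pmaip1 was at 0.46 in the 4 libraries without Y-linked reads, at a log2 ratio of 1.82 in the pair and at 0.57 without caBmpr1a replicate 3. Plk3 had 33.3, 22.1 and 33.1 CPM in control and 25.8, 21.3 and 103 CPM in caBmpr1a, so its value rested on caBmpr1a replicate 3, and without that library it was -0.29. Beside Sesn1 and Plk2, groups did not overlap for Ei24 in the downward and for Ak1, Apaf1 and Eda2r in the upward direction, and these 4 genes were named after their values were seen. The count is 3 of 31 each way, beside the 7% upward and 10.1% downward of all tested genes.

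**Figure D3:**
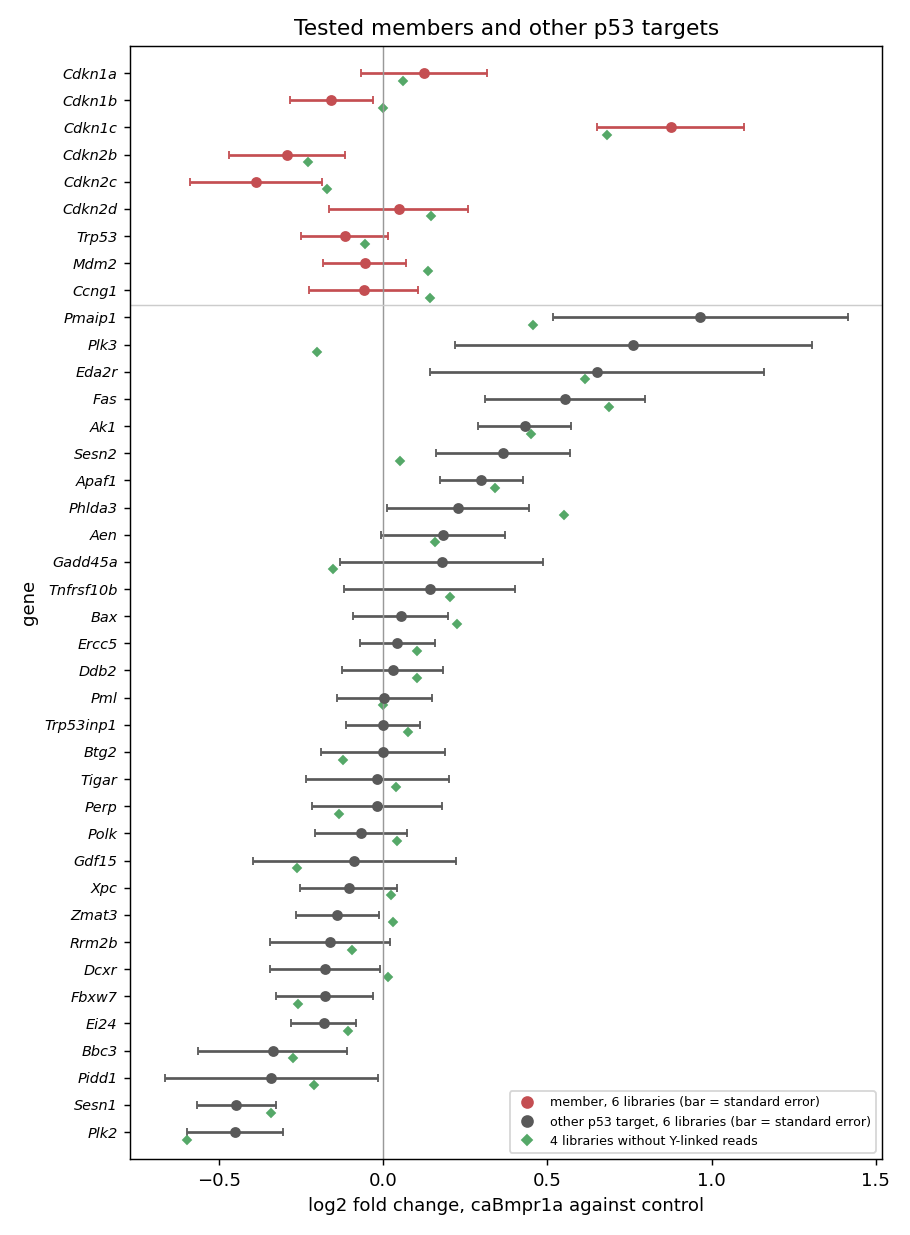
Log2 fold change of caBmpr1a against control (horizontal axis) for the 9 tested members in red and the 31 other p53 targets in grey, with bars for the standard error (n = 3 libraries per group) and green diamonds for the values in the 4 libraries without Y-linked reads. The values lie on both sides of 0, from -0.45 for Plk2 to 0.97 for Pmaip1. The diamonds of the members Mdm2 and Ccng1, of Plk3 and of some other targets are on the other side of 0 from their main values.

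Regulators and relatives of p53 numbered 16, all tested, with 0 called by edgeR or DESeq2 and a median of -0.01. At an unadjusted p under 0.05, 0 were higher and 1 was lower. That gene was Rchy1, a ubiquitin ligase for p53 also called PIRH2, with 46.9, 36.3 and 43.6 CPM in control and 33.3, 29.4 and 23.9 CPM in caBmpr1a. Its groups did not overlap and its log2 fold change was -0.55 (edgeR adjusted p = 0.325), with -0.32 in the 4 libraries without Y-linked reads. The p53 kinase gene Hipk2 had 11.4, 42.5 and 36.4 CPM in control and 43.1, 62.3 and 49.4 CPM in caBmpr1a, without overlap, and control replicate 1 was far below the rest. Its log2 fold change was 0.78 (edgeR adjusted p = 0.588), with 0.46 in the 4 libraries without Y-linked reads and 0.38 without control replicate 1. Trp63, the p63 gene, stood at 0.70 (0.42 in the 4 libraries) and Kat5 at -0.19 (-0.07 in the 4 libraries and -0.09 without caBmpr1a replicate 3).

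The targets of the inhibitors were described from a list of 11 cyclin and CDK genes, of which 0 were called by edgeR or DESeq2, 1 was higher and 2 lower at an unadjusted p under 0.05, and the median was -0.20. Ccnd3, a D cyclin, had 146, 155 and 154 CPM in control and 194, 242 and 389.6 CPM in caBmpr1a replicates 1 to 3. The groups did not overlap and caBmpr1a replicate 3 was highest. The log2 fold change was 0.86 (SE 0.24, edgeR adjusted p = 0.293), with 0.54 in the 4 libraries without Y-linked reads and a log2 ratio of 1.42 in the pair. Over all alternatives its adjusted p ranged from 0.0192 to 0.6995, the lowest with DESeq2, at a fold change under 2. Ccnd2 had 46.9, 76.3 and 50.1 CPM in control and 36.0, 34.5 and 38.2 CPM in caBmpr1a. Again the groups did not overlap, and the log2 fold change was -0.67 (edgeR adjusted p = 0.306). It was -0.43 without control replicate 2 and -0.81 in the 4 libraries without Y-linked reads. Ccnd1, named after its values were seen, had 246, 371 and 296 CPM in control and 264, 195 and 133 CPM in caBmpr1a, and -0.63 as log2 fold change (edgeR adjusted p = 0.485), and its groups overlapped. Over all alternatives the log2 fold change of Ccnd1 ranged from -0.87 to -0.37. Ccna2 stood at -0.67, with -0.34 without control replicate 3 and -0.91 without control replicate 2, and Ccne1 at 0.42, with values from -0.20 (without caBmpr1a replicate 3) to 0.91 (without control replicate 1).

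Within a library, the shares of the 3 D cyclins in their summed level per kilobase do not depend on the scaling of that library. This measure was chosen after the values were seen. Ccnd3 made up 46.9%, 38.1% and 44.0% in control replicates 1 to 3 and 53.1%, 65.2% and 80.5% in caBmpr1a replicates 1 to 3, on average 43.0 ± 4.48% and 66.3 ± 13.7% (SD, n = 3). The groups did not overlap, and no test is given for a measure chosen on these values. The share of Ccnd1 was 47.2%, 54.5% and 50.4% in control and 43.0%, 31.2% and 16.4% in caBmpr1a, also without overlap. Ccnd3 was the most abundant D cyclin per length in all caBmpr1a libraries, and Ccnd1 in all control libraries.

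**Figure D4:**
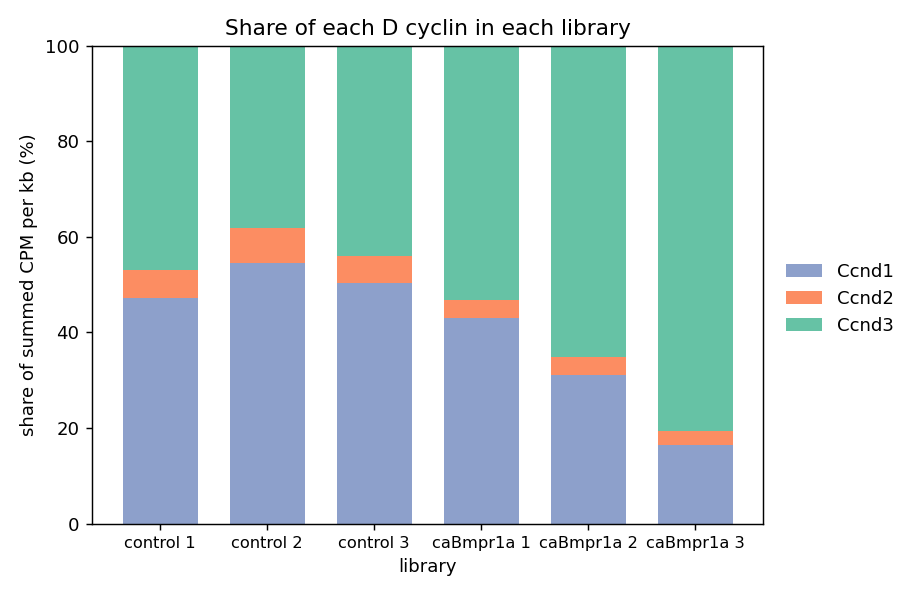
Share of Ccnd1, Ccnd2 and Ccnd3 in their summed CPM per kb (vertical axis, percent) in each of the 6 libraries. The Ccnd3 share runs from 38.1% to 46.9% in control and from 53.1% to 80.5% in caBmpr1a.

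Among RB and E2F genes, ubiquitin ligase parts, regulators of the INK4/ARF locus and other transcription factors, 0 genes were called by edgeR or DESeq2. Of 10 RB and E2F genes, 8 were below 0, with a median of -0.15 and values from E2f5 (-0.32) and the retinoblastoma gene Rb1 (-0.31) to Tfdp2 (0.09) and E2f1 (0.18, but -0.02 in the 4 libraries without Y-linked reads), and 1 was lower at an unadjusted p under 0.05. Rb1 was at -0.20 without caBmpr1a replicate 3. Tfdp2 was at 0.03 without control replicate 1 and at 0.19 without control replicate 2. Of 9 genes for ubiquitin ligase parts that act on p21 and p27, 8 were below 0 (median -0.10), with Skp2, the substrate receptor for p27, at -0.71 and Dtl, a receptor for p21, at -0.47. Both varied with the libraries used, with Skp2 from -0.97 (without caBmpr1a replicate 2) to -0.47 (without control replicate 3), and Dtl at -0.076 without control replicate 3, at -0.078 without caBmpr1a replicate 1 and at -1.15 in the 4 libraries without Y-linked reads. The highest of these were Rnf123 (-0.04) and Ubac1 (0.05). Of 13 regulators of the INK4/ARF locus, 7 were above 0 (median 0.04). The T-box repressor genes Tbx3 (0.50) and Tbx2 (0.46, but 0.23 without control replicate 1) were highest and the Polycomb genes Cbx7 (-0.24) and Rnf2 (-0.15) lowest. With 1 library left out, Tbx3 ranged from 0.32 (without control replicate 3) to 0.78 (without control replicate 2). Cbx7 then ranged from -0.38 (without caBmpr1a replicate 2) to -0.12 (without caBmpr1a replicate 1). In these last 2 lists 0 genes had an unadjusted p under 0.05.

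Of 12 other transcription factors of CDK inhibitor genes, 6 were above 0 (median 0.0033), from Cebpa (-0.26) and Sp3 (-0.20) to Klf4 (0.35) and Foxo3 (0.55). Klf4 was at 0.10 in the 4 libraries without Y-linked reads, at a log2 ratio of 0.70 in the pair, and at -0.02 without caBmpr1a replicate 3. Again 0 had an unadjusted p under 0.05. Foxo3, a forkhead factor that induces Cdkn1b, had 105, 156 and 167 CPM in control and 144, 169 and 313 CPM in caBmpr1a replicates 1 to 3. In the 4 libraries without Y-linked reads its log2 fold change was -0.01, and the log2 ratio of the pair was 1.58. An edgeR interaction fit of that difference, chosen after the data were seen, gave 11 of all tested genes an adjusted p under 0.05 (0.0658%), Foxo3 among them and 0 of the members. At an unadjusted p under 0.05 it took in 2 of the 9 tested members, Mdm2 and Ccng1, beside 13.7% of all tested genes. The fit assumes that the 1 library per group of the pair varies like the other 4, which these data cannot check, so its values are a description.

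Of 13 proliferation genes, 12 were below 0, beside 8563 of all 16723 tested genes, and 1, Birc5, was above (0.17). The median of the list was -0.25, with 0 called by edgeR or DESeq2 and 0 at an unadjusted p under 0.05. Cdc20 (-0.45, with -0.14 without control replicate 3 and -0.71 without control replicate 2) and Mki67 (-0.44) were lowest and Pcna (-0.11) second highest. Mki67 had 17.2, 21.2 and 51.9 CPM in control and 14.9, 30.03 and 21.6 CPM in caBmpr1a, so the groups overlapped. Its high control value was that of replicate 3, where 10 of the 13 genes were at their highest, and without that library the log2 fold change of Mki67 was 0.21.

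Immediate early and heat shock genes, which respond to tissue dissociation and partly share regulators with Cdkn1a, were described from a list of 14. None was called by edgeR or DESeq2, 1 was higher at an unadjusted p under 0.05, and the median was 0.03. The highest were Dusp1 (0.42) and Fosb (0.24), with 0.32 and -0.04 in the 4 libraries without Y-linked reads, and Fosb ranged from -0.31 to 0.53 with 1 library left out. The lowest were Hspa1b (-0.47) and Hspa1a (-0.47), at -0.18 and -0.28 in those 4. The summed level of the 14 genes was 23375, 21339 and 18157 CPM in control and 18946, 17391 and 22571 CPM in caBmpr1a replicates 1 to 3. The highest sums were those of control replicate 1 and caBmpr1a replicate 3, the libraries in which Cdkn1a was highest too. Their part in the level of Cdkn1a was not tested.

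**Figure D5:**
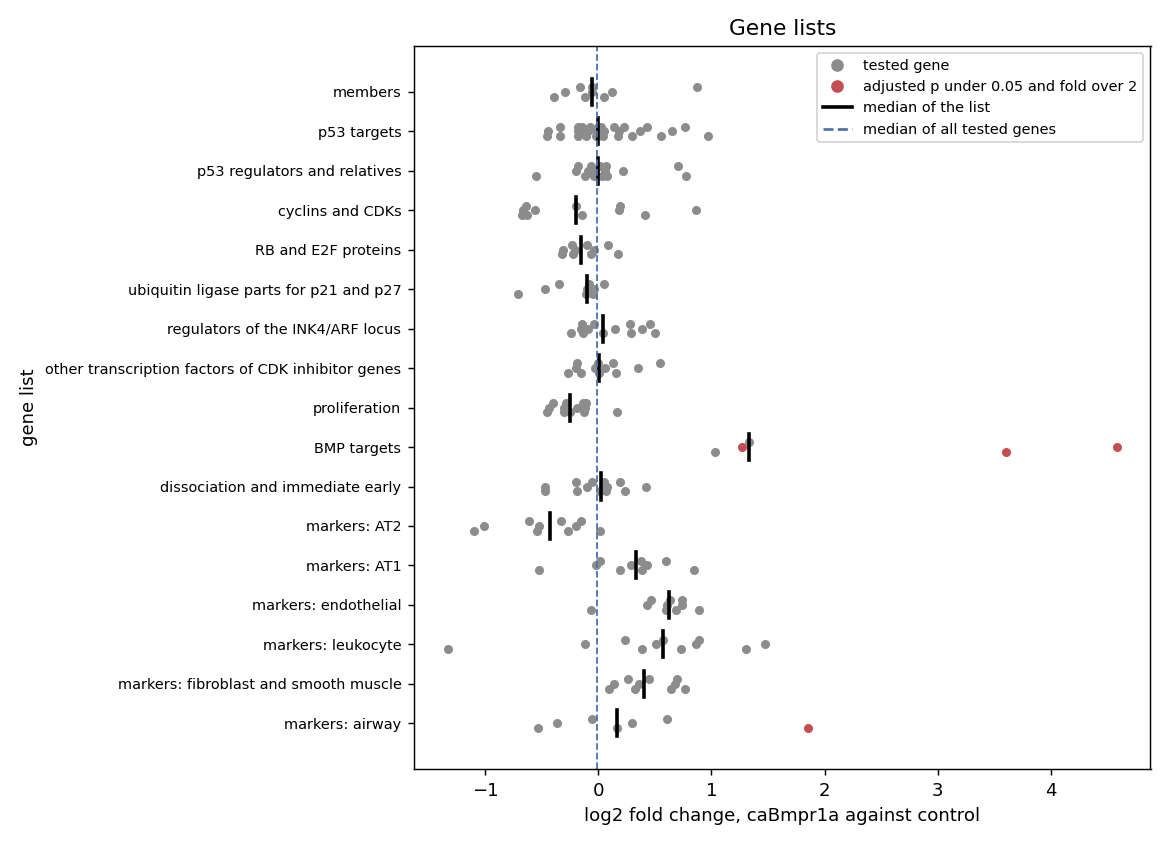
Log2 fold change of every tested gene of each list (horizontal axis, grey points, red where called), with the list's median as a black bar and the median of all tested genes, -0.01, as a dashed line. The called points are Id1, Id3 and Smad6 among the BMP targets and Tppp3 among the airway markers.

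Markers of the remaining lung epithelium complete the description. Of 10 AT1 markers, 8 were above 0 (median 0.33), 1 was higher and 1 lower at an unadjusted p under 0.05, and 0 were called by edgeR or DESeq2. They reached from Aqp5 (-0.53) and Ager (-0.02) to Igfbp2 (0.60, but 0.21 without caBmpr1a replicate 2) and Rtkn2 (0.84), with Ager the most abundant. Their sum was 3273, 2969 and 2337 CPM in control and 2700.2, 3168 and 2700.3 CPM in caBmpr1a, with overlap. Of 8 airway markers 7 were tested, 4 were above 0 and 3 below (median 0.17), and 1 was called higher by edgeR and 1 by DESeq2. There was 1 higher and 1 lower at an unadjusted p under 0.05. Cyp2f2, a cytochrome P450 of club cells, had 214, 173 and 192 CPM in control and 134, 139 and 127 CPM in caBmpr1a, without overlap, and stood at -0.53 (edgeR adjusted p = 0.190, with 0.0158 in DESeq2 and 0.0359 with the covariate for Y-linked reads, at a fold under 2, and up to 0.709 over all alternatives). The other values below 0 were those of Muc5b (-0.37, turning to 1.04 without control replicate 2) and Scgb3a2 (-0.06, turning to 0.30 without control replicate 2), and Foxj1 (0.61) was second highest, these 4 genes being chosen after their values were seen. Tppp3, a tubulin-binding protein that ciliated cells express, rose with a log2 fold change of 1.85 (edgeR adjusted p = 0.0165). It had 92.3, 93.3 and 104 CPM in control and 243, 363 and 439 CPM in caBmpr1a replicates 1 to 3. Foxj1, of the same list, had from 2.82 to 7.97 CPM over the 6 libraries, and the cells behind the rise of Tppp3 were not tested. The call of Tppp3 was lost without control replicate 1, 2 or 3 or caBmpr1a replicate 2 (1.82, 1.82, 1.90 and 1.83, with edgeR adjusted p = 0.0846, 0.130, 0.0932 and 0.0778). Tppp3 was also called in the 4 libraries without Y-linked reads, at 1.66 (edgeR adjusted p = 0.0170). The basal cell keratin gene Krt5 was at 0 counts in all 6 libraries and Scgb1a1, the club cell secretoglobin, was the most abundant. The airway sum was 825, 915 and 723 CPM in control and 838, 1176 and 1219 CPM in caBmpr1a.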

How the data were processed

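RNA sequencing counts per gene were deposited for the 6 libraries. By the study's methods, the authors trimmed and aligned the reads to mm10, removed duplicates and counted on exons with featureCounts (1.5.3 by the table's header); the deposited counts are unstranded. The methods name fragments as the unit counted, whereas the table's header sets no paired mode and 56.9% to 60.8% of its counts from 1 to 20 were even, so mates are taken as counted singly. The quasi-likelihood test of edgeR 4.0.16 (R 4.3.3) was run on all genes that passed its expression filter (minimum count 10), after TMM scaling, with p-values adjusted over these genes by the method of Benjamini and Hochberg, and DESeq2 1.42.0 was an alternative, as were other scalings, no filter, halved counts, covariates for age and Y-linked reads, a replicate block, the 4 libraries without Y-linked reads and leaving out each library. Correlations and principal components used log2 CPM with a prior count of 2. The procedure was tested on simulated data. Members and lists were chosen with earlier results of these data known. Named were the 10 members, genes with an adjusted p under 0.05, otherwise the 2 highest and 2 lowest log2 fold changes of each list, the most abundant markers, markers at 0 and the 3 patterns closest to Cdkn1a. Chosen after seeing the data were the interaction with Y-linked reads, the shares among D cyclins and among CDK inhibitors, and the marker sums without the most abundant gene.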

Additional observations from a re-analysis of the deposited data

Results flagged for a closer look

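For 7 named genes the log2 ratio of the pair of libraries with Y-linked reads and the log2 fold change in the other 4 libraries stood apart. For Foxo3 an edgeR interaction test, chosen after seeing the data, gave an adjusted p under 0.05; for the other 6 the groups did not overlap in the 4 libraries and the pair lay in the opposite direction. The pair has 1 library per group, so the fit takes its spread from the other 4 and assumes that the pair varies like them, and the values are a description. Foxo3 differed by 1.63 (edgeR adjusted p = 0.0343), with 1.58 in the pair and -0.01 in the 4 libraries. For the member Mdm2 the difference was -0.47 (edgeR adjusted p = 0.221), with -0.37 in the pair and 0.14 in the 4 libraries. Pcna differed by 0.56 (edgeR adjusted p = 0.254), Igfbp2 by -0.86 (adjusted p = 0.345) and Itgax by -2.07 (adjusted p = 0.233). Dtl differed by 2.11 (edgeR adjusted p = 0.387), with 0.93 in the pair and -1.15 in the 4 libraries, and S100a8 by -2.35 (adjusted p = 0.525), with -0.68 and 1.70. The cause was not tested.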

How the results depend on the processing

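Of 78 named genes tested, 54 kept the sign of their log2 fold change under all 15 alternatives, and the count of members called was 0 in each of them, edgeR and DESeq2. At an unadjusted p under 0.05, Cdkn1c was higher in each, and without control replicate 2 Cdkn2c was lower (-0.54). Genes called higher, 38, were 119 with DESeq2, 108 with the Y-linked covariate and from 6 (without control replicate 2) to 59 (without caBmpr1a replicate 1) with 1 library left out. Genes called lower, 2, were 1 by library size or with age, 5 without the filter, 25 with DESeq2, 34 with the Y-linked covariate, 8 in the 4 libraries without Y-linked reads and from 0 to 4 with 1 library left out. With the replicate block, genes called lower were 5, Ager stood at 0.0130 and Muc5b at 0.40; libraries sharing a replicate number had deviations from their group's mean that correlated at -0.24, 0.20 and -0.53 over genes, and no pairing was used. With the Y-linked covariate 2 AT2 markers were called, Lyz2 and Cxcl15. Signs turned by library size only for Trp53 (0.0143), Mdm2 (0.0688), Ccng1 (0.0631), Rnf123 (0.0914), Pcna (0.0302), Ager (0.11), Esam (0.0627), Cd68 (0.00204) and Scgb3a2 (0.0806), in the 4 libraries for Mdm2 (0.14), Ccng1 (0.14), Plk3 (-0.20), E2f1 (-0.0195), Foxo3 (-0.0149), Birc5 (-0.0258), Fosb (-0.0384), Sftpc (0.0392), Ager (0.24) and Cd68 (0.19), for Muc5b with age (0.20), for Sftpb without the filter (-0.00319), and for Ager with RLE scaling in edgeR (0.0127), DESeq2 (0.00139) and the Y-linked covariate (0.00809). With 1 library left out, signs turned within the ranges of Cdkn1a (-0.0449 to 0.29), Cdkn2d (-0.12 to 0.24), Mdm2 (-0.13 to 0.0537), Ccng1 (-0.18 to 0.14), Plk3 (-0.29 to 1.13), Ccne1 (-0.20 to 0.91), Rnf123 (-0.13 to 0.0591), Ubac1 (-0.000855 to 0.15), Klf4 (-0.0174 to 0.56), Mki67 (-0.73 to 0.21), Pcna (-0.24 to 0.00626), Birc5 (-0.38 to 0.53), Fosb (-0.31 to 0.53), Sftpc (-0.24 to 0.024), Sftpb (-0.0191 to 0.0812), Ager (-0.18 to 0.19), Esam (-0.15 to 0.0129), Cd68 (-0.22 to 0.0489), Lum (-0.21 to 0.49), Muc5b (-0.90 to 1.04) and Scgb3a2 (-0.28 to 0.30). The cause was not tested. Counts of a few reads, as for Cdkn2a, limit what the depth can show.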
